A study of Arabidopsis thaliana with 8 samples.

Results

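The average response of *Arabidopsis thaliana* seedlings to a shift from 23°C to 27°C was measured over both genotypes of the study, the *pwr-2* mutant and its wild type, Col-0. All 8 RNA-seq libraries of the series were used, 4 from seedlings at 27°C and 4 from seedlings kept at 23°C. Each 27°C library was set against the 23°C library of the same genotype and replicate number, which gave 4 pairs: Col-0 replicates 1 and 2 and *pwr-2* replicates 1 and 2. The members described here are the genes that moved the same way in all 4 pairs, 3252 of 19131 genes with enough counts to be tested, out of 33602 genes in the tables. Whole seedlings, 6 days old and grown in short days, were collected after 2 hours at either temperature, with 2 biological replicates, each a pool of seedlings, in each of the 4 groups. The *pwr-2* line carries a T-DNA insertion in *POWERDRESS* (*PWR*, AT3G52250), which encodes a SANT-domain protein that works with a histone deacetylase, and is in the Col-0 background. All groups shared the photoperiod and were 6 days old, and the mutant groups rest on 1 insertion line.

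As background, a mild rise in ambient temperature is known to reach plants along several routes. Heat-shock factors turn on cytosolic chaperones that keep proteins folded, and the unfolded protein response of the endoplasmic reticulum (ER) turns on the chaperones of the secretory pathway. PIF4, a basic helix-loop-helix transcription factor, drives auxin synthesis and elongation growth in the warmth, while the circadian clock gates these outputs, and the cold regulon under the CBF/DREB1 factors is active at low temperature.

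Total counts per library ran from 7379650 to 15733741. Genes of the chloroplast and mitochondria took between 0.0374% and 6.77% of counts, the lowest share in *pwr-2* at 23°C replicate 2 and the highest in Col-0 at 23°C replicate 1. The 22 nuclear photosynthesis genes, which mark green shoot tissue, summed to between 78780 and 136400 CPM (counts scaled to library size after TMM normalization) with none at 0. The 4 floral markers summed to between 0.0904 and 1.61 CPM, and 2 or 3 of them were at 0 in every library. Root markers summed to between 15.6 and 135 CPM and seed storage markers to between 3.64 and 444 CPM. In whole seedlings, fewer cells of a type and less RNA per cell cannot be told apart. The share was also 6.49% in *pwr-2* at 23°C replicate 1. In nuclear genes, single 23°C libraries stood apart from the rest, each in different genes. The root markers summed to 135 CPM in *pwr-2* at 23°C replicate 1, and to 39.2 to 68.2 CPM in the other 23°C libraries. Col-0 at 23°C replicate 1 had 1339 CPM of *RAB18* (AT5G66400), a dehydrin induced by abscisic acid, where the other 23°C libraries had 80.6 to 111 CPM. *HSP17.4*, a cytosolic small heat-shock protein gene, stood at 106 CPM in *pwr-2* at 23°C replicate 2 and at 0.108 to 3.51 CPM in the other 23°C libraries. Counts of the main lists are also given with a pair left out. Such a count can stay or rise but cannot fall, since fewer pairs have to agree.

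*PWR* itself, on chromosome 3 from 19376138 to 19383369 of the TAIR10.1 annotation, was read first as a check of the labels. Its level in Col-0 replicates 1 and 2 was 57.4 and 75.3 CPM at 23°C and 43.1 and 81.6 CPM at 27°C. The mutant replicates had 15.5 and 11.3 CPM at the lower temperature and 11.9 and 20.1 CPM at the higher. The mutant libraries all lay below the Col-0 libraries, and the temperatures overlapped. Averaged over the pairs, the log2 fold change of *PWR* at 27°C was 0.04 (standard error 0.23), with 2 pairs up and 2 down.

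No gene passed an adjusted p of 0.05 for the average temperature effect in edgeR's quasi-likelihood test with the 4 pairs as a block (0 of 19131 genes, 0%), where the lowest adjusted p was 0.182. At an unadjusted p under 0.05 that test held 638 genes higher (3.33% of those tested) and 650 lower (3.4%) at 27°C. DESeq2 with the same block called 67 genes higher (0.424%) and 67 lower (0.424%) of 15793 genes to which it gave an adjusted p. Of these 134, 130 moved the same way in all 4 pairs, a direction read from the same counts as the test. Without the pair of Col-0 replicate 1 the genes at an unadjusted p under 0.05 in edgeR numbered 3163, and without any other pair 642 to 1000. P-values here measure the spread between pairs of libraries. The pairs differed in how much they moved. The SD of the log2 change across genes was 0.89 in Col-0 replicate 1, 0.40 in Col-0 replicate 2, 0.65 in *pwr-2* replicate 1 and 0.70 in *pwr-2* replicate 2. Across the 19131 genes, which are not independent, the change in Col-0 replicate 1 had a Pearson's r of -0.503 with that in *pwr-2* replicate 2 and -0.279 with that in *pwr-2* replicate 1, while the *pwr-2* replicates had an r of 0.383 with each other. The r was 0.0668 between the Col-0 replicates, and that of Col-0 replicate 2 was 0.28 with *pwr-2* replicate 1 and 0.124 with *pwr-2* replicate 2.

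In all 4 pairs, 1654 genes were higher (8.65% of genes tested) and 1598 were lower (8.35%) at 27°C. Most of these differences were small. The weakest of the 4 pairs was beyond 0.25 on the log2 scale in 265 higher and 259 lower genes, beyond 0.5 in 62 and 59, and beyond 1 in 7 and 0. Over all genes tested the median absolute log2 fold change was 0.16. The levels of the 27°C libraries all lay above those of the 23°C libraries in 132 genes (0.69%) and all below them in 120 genes (0.627%). Left without the pair of Col-0 replicate 1, 7777 genes moved the same way in the other 3 pairs, against 5608 without *pwr-2* replicate 2, 4743 without Col-0 replicate 2 and 4656 without *pwr-2* replicate 1.

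The gene with the lowest p was AT5G12110, annotated as elongation factor 1-beta 1, a nucleotide exchange factor of translation elongation, on chromosome 5 from 3914468 to 3916896. It stood at 19.3 and 13.8 CPM in the Col-0 replicates and 12 and 6.69 CPM in the *pwr-2* replicates at 23°C. At 27°C the values were 82.7 and 48.2 CPM in Col-0 and 68.0 and 32.4 CPM in *pwr-2*. Every 27°C library was above every 23°C library, with changes between 1.79 and 2.49 in the pairs. The log2 fold change was 2.17 (standard error 0.15, edgeR adjusted p = 0.182, DESeq2 adjusted p = 6.76e-24). Of the other 6 translation elongation factor genes none was higher in all 4 pairs, and *LOS1*, an elongation factor 2 gene, was lower in all 4 with a log2 fold change of -0.36 (standard error 0.15).

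*RANBP1* (chromosome 5 from 23680063 to 23681935), a partner of the RAN GTPase in nuclear transport, had 25.5 and 20.8 CPM in Col-0 and 24.2 and 22.0 CPM in *pwr-2* at 23°C. Its 27°C levels were 57.0 and 49.99 CPM in Col-0 and 44.5 and 41.9 CPM in *pwr-2*, again with no overlap between temperatures. Its log2 fold change was 1.06 (standard error 0.11, edgeR adjusted p = 0.441). *PDIL2-2* (chromosome 1 from 1413644 to 1416218), which encodes a protein disulfide isomerase, the enzyme class that forms disulfide bonds in the ER, ran from 6.81 to 12.2 CPM over the 23°C libraries and from 21.3 to 41.5 CPM over the 27°C libraries. Its log2 fold change was 1.48 (standard error 0.18, edgeR adjusted p = 0.582).

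The other 9 of the 12 higher genes with the lowest p had log2 fold changes from 0.66 to 2.46. *Hrd1B*, a RING ubiquitin ligase of the family that disposes of misfolded ER proteins, was at 21.6 to 37.1 CPM at 23°C and at 40.5 to 64.1 CPM at 27°C. AT2G19310, annotated as an HSP20-like chaperone, was at 18.1 to 25.2 CPM at 23°C and at 30.2 to 51.4 CPM at 27°C. Neither of the 2 overlapped between the temperatures. *NET3A*, a gene of the NET family of actin-binding proteins, had a log2 fold change of 1.39, *UGT75B1*, a glucosyltransferase, of 1.02 and *CYP71B2*, a cytochrome P450, of 1.01. AT3G53830 and AT1G67325 are annotated as an RCC1 family protein and a RanBP2-type zinc finger protein, and had log2 fold changes of 1.09 and 0.66. AT2G36950, a heavy metal transport domain protein, had 0.88. AT1G19960, annotated as a transcription factor, had the largest log2 fold change of the 12, at 2.46, but its level did not exceed 8.76 CPM in any library.

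Among the lower genes *ABF1* (chromosome 1 from 18400003 to 18402628), a bZIP factor that binds abscisic acid response elements, had the lowest p. It had 38.5 and 56.6 CPM in Col-0 and 45.3 and 73.3 CPM in *pwr-2* at 23°C. The warm libraries had 18.4 and 28.2 CPM in Col-0 and 23.3 and 33.6 CPM in *pwr-2*. The highest 27°C library was below the lowest 23°C library, and the changes in the pairs lay between -1.12 and -0.96. The log2 fold change of *ABF1* was -1.04 (standard error 0.10, edgeR adjusted p = 0.388, DESeq2 adjusted p = 3.96e-10).

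*RS40* (chromosome 4 from 13024498 to 13027484), an arginine/serine-rich splicing factor, was at 52.1 to 64.4 CPM at 23°C and at 29.3 to 37.5 CPM at 27°C, with a log2 fold change of -0.87 (standard error 0.10). AT4G21215, an uncharacterized protein, was at 18.8 to 34.3 CPM at 23°C and at 8.54 to 16.1 CPM at 27°C, with -1.11 (standard error 0.11). The kinase gene *ATMPK8*, at -0.66, was the only other one of the 12 lower genes whose temperatures did not overlap. *ADS2*, a fatty acid desaturase known for its role in the cold, had a log2 fold change of -0.83, and *SAHH2*, which breaks down S-adenosylhomocysteine after methylation reactions, of -0.91. *AZI1*, a lipid-transfer-like protein of systemic defence priming, had -1.31, *iPGAM1*, a phosphoglycerate mutase of glycolysis, -0.64, AT1G51090, a heavy metal transport domain protein, -1.27, and AT5G55400, a calponin homology domain protein, -0.61. The remaining 2 of the 12, *PRR5* and *FKF1*, belong to the circadian clock and are described with it.

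**Figure D1:**
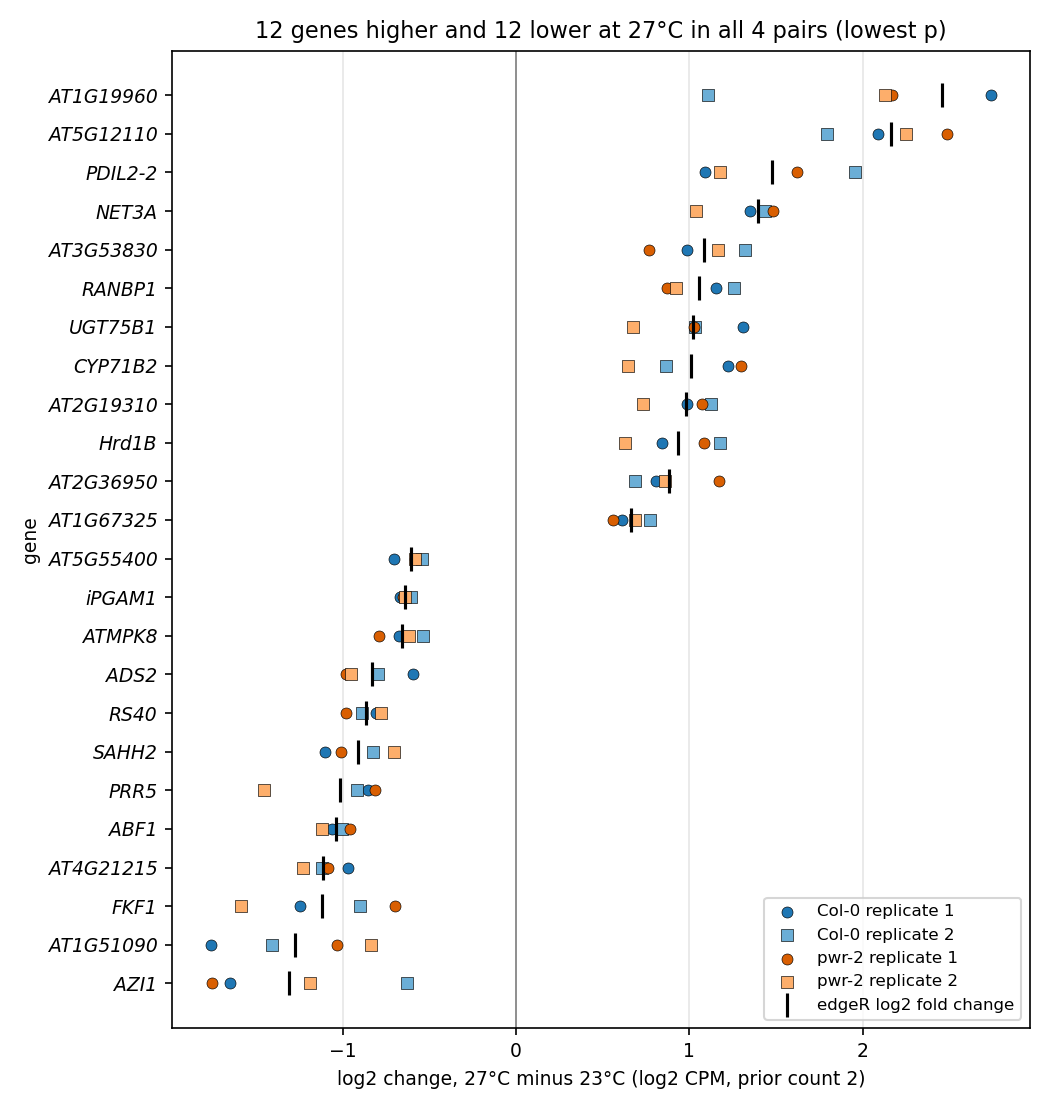
Log2 change in CPM between 27°C and 23°C (x axis) in each of the 4 pairs (blue, Col-0; orange, *pwr-2*; circles, replicate 1; squares, replicate 2) for the 12 higher and 12 lower genes with the lowest p (y axis), with the edgeR log2 fold change as a black bar. The genes were chosen among those that moved the same way in all 4 pairs, which puts all 4 points on 1 side of 0. The points run from 1.79 to 2.49 for AT5G12110 and from -1.12 to -0.96 for *ABF1*.

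The ER chaperones and genes of the unfolded protein response formed the list with the largest share of members higher in every pair. Of its 18 genes, 13 were higher in all 4 pairs (72.2%, against 8.65% of all genes tested) and none was lower in all 4. The median log2 fold change of the list was 0.64, where that of all genes tested was 0.02, 13 members had an unadjusted p under 0.05 in edgeR, and DESeq2 called 7 of these. The median was above 0 in each pair, at 0.57 and 0.97 in Col-0 and 0.58 and 0.44 in *pwr-2*. *BIP2*, an ER HSP70, was at 117.8 to 242 CPM at 23°C and at 313 to 385 CPM at 27°C, and the log2 fold change was 0.84 (standard error 0.18). *BIP1*, its near-identical copy, had 0.67. Reads of the pair may be split between them in ways the files do not show. *CRT1a*, the calcium-binding lectin calreticulin, was at 193 and 129 CPM in Col-0 and 251 and 225 CPM in *pwr-2* at 23°C. At 27°C *CRT1a* was at 353 and 297 CPM in Col-0 and 371 and 341 CPM in *pwr-2*, above every 23°C library.

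Co-chaperones of BiP were higher as well. *ATERDJ3A* had a log2 fold change of 1.31 (standard error 0.25), *ATERDJ3B* of 0.89 (standard error 0.16), *SDF2* of 0.86 and *P58IPK* of 0.64. *SHD*, the ER HSP90, had 0.71, and the lectin chaperones *CNX1* and *CRT1b* had 0.63 and 0.57. The disulfide isomerases *PDIL1-2*, *UNE5* and *PDIL1-1* had smaller values of 0.49, 0.40 and 0.15, although each was higher in every pair. Transcripts of the bZIP transcription factors of the response did not move in step. *BZIP28* had 0.30 and *BZIP60* 0.16, both lower at 27°C in the pair of Col-0 replicate 1, as was *BIP3* (0.91, standard error 0.68). *ATERDJ2A*, at -0.06, was the only member below 0. Without the pair of Col-0 replicate 1, 17 of the 18 were higher in all other pairs, and without any other pair 13 were. Of all 19131 genes tested, 7777 moved the same way, up or down, without Col-0 replicate 1, and 4656 to 5608 without another pair.

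**Figure D2:**
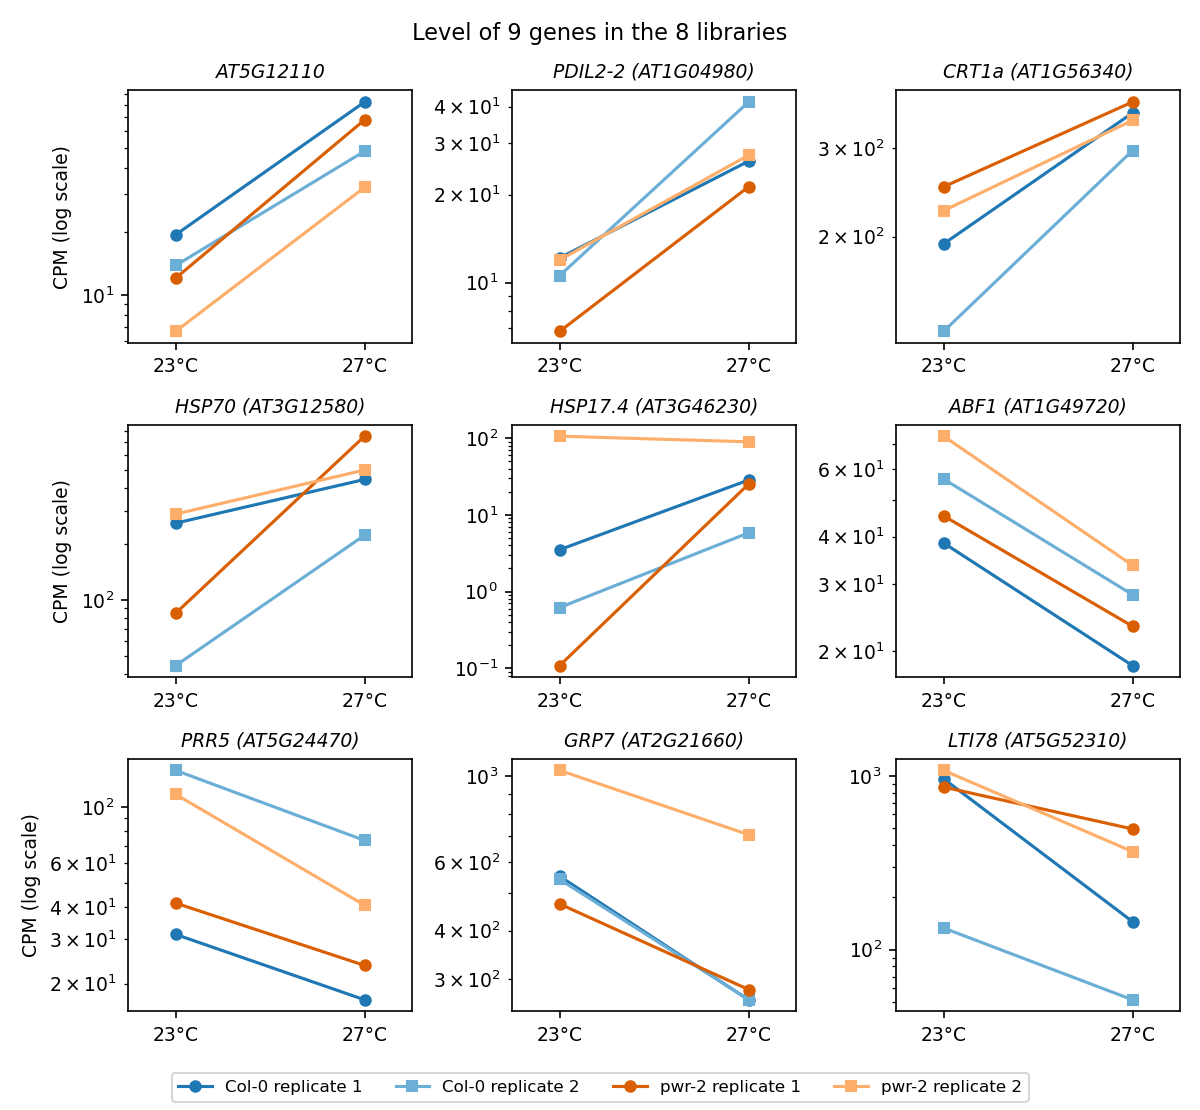
Level of 9 genes in the 8 libraries, in CPM on a log axis, with a line from the 23°C to the 27°C library of each pair (blue, Col-0; orange, *pwr-2*; circles, replicate 1; squares, replicate 2). The lines of AT5G12110, *PDIL2-2* and *CRT1a* run up and those of *ABF1*, *PRR5*, *GRP7* and *LTI78* run down in all 4 pairs, while *HSP17.4* starts at 106 CPM in *pwr-2* replicate 2 and ends at 89.6 CPM.

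The promoters of *CRT1a* and *P58IPK* are shown because they hold the G-box, CACGTG, which is part of elements that ER stress factors bind in plants. The window is the 250 bases before the annotated start, from the RefSeq genome TAIR10.1, 5′ to 3′ on the strand of the gene, with the motif in capitals.
CRT1a, chr1:21092710-21092959, minus strand: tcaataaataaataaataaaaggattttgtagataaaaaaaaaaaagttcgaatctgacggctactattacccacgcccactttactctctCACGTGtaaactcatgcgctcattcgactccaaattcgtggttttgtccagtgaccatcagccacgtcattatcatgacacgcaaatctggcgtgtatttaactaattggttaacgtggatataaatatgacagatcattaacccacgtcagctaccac
P58IPK, chr5:749851-750100, plus strand: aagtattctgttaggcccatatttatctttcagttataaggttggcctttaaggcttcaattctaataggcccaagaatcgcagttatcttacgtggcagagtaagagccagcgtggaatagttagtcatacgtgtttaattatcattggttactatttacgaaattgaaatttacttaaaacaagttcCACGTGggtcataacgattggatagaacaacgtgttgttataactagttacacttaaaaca
In the ER list 7 of 18 promoters (38.9%) held a G-box, against 7.55% of the promoters of all genes tested, and they were those of 5 of the 13 members higher in all pairs and 2 of the other 5. Other lists had similar shares, with a G-box in 45.5% of flavonoid and anthocyanin promoters and 33.3% of circadian clock promoters. A match is a description of these letters.

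Cytosolic and organellar chaperones were the next list. Of 26 genes, 14 were higher in all 4 pairs (53.8%, against 8.65% of all genes tested), none was lower in all 4, and the median log2 fold change was 0.46. Without the pair of Col-0 replicate 1, 17 of the chaperones were higher in the remaining pairs, and without any other pair 14 or 15. The genes that moved the same way, up or down, without Col-0 replicate 1 were 7777 of all 19131 tested. *ROF1*, a peptidyl-prolyl isomerase that binds HSP90, had 89.9 and 66.6 CPM in Col-0 and 97.2 and 106 CPM in *pwr-2* at 23°C. Its 27°C levels were 170 and 119 CPM in Col-0 and 140 and 182 CPM in *pwr-2*, with no overlap and a log2 fold change of 0.77 (standard error 0.12). *HSP70* (AT3G12580), used as a reporter of the warm response, had 258 and 44.4 CPM in Col-0 and 84.8 and 288 CPM in *pwr-2* at 23°C. Its 27°C values were 442 and 222 CPM in Col-0 and 754 and 497 CPM in *pwr-2*. The temperatures overlapped although every pair was higher, and the log2 fold change of *HSP70* was 1.75 (standard error 0.47, edgeR adjusted p = 0.612, DESeq2 adjusted p = 0.00684).

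*HSP90.1*, *Hop3*, a co-chaperone that links HSP70 and HSP90, and AT5G48570, an FKBP-type isomerase, each had a log2 fold change of 2.22, with standard errors of 0.56, 0.48 and 0.53. The disaggregase *HSP101* had 1.60 and the mitochondrial chaperonins *CPN10* and *HSP60* had 0.71 and 0.46. *CLPB4*, *CR88*, *J2* and *Hop2* had 0.62, 0.73, 0.46 and 0.41, and the constitutive *HSP81-2* and *Hsp70-15* had 0.29 and 0.27. Constitutive members such as *HSC70-1* (0.24) and AT3G09440 (0.09) were higher in some pairs only. The same held for other HSP70 genes of the list, among them *Hsp70b* (0.49) and *HSP70T-2* (0.62). Near-identical HSP90 copies, *HSP81-2* among them, may share reads.

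The 14 small heat-shock protein genes, which bind unfolding proteins, had the largest median log2 fold change of any list, 1.77, and also one of the widest spreads. That median was 1.16 without the pair of Col-0 replicate 1, 3.09 without that of *pwr-2* replicate 2, 1.21 with the replicate number as a block of 2 levels and 1.16 with no block. The medians of the pairs were 2.04 and 2.13 in Col-0 and 3.79 and -0.15 in *pwr-2* replicates 1 and 2. In every pair 5 genes (35.7%, against 8.65% of all genes tested) were higher. *HSP17.4* had 3.51 and 0.618 CPM in Col-0 and 0.108 and 106 CPM in *pwr-2* at 23°C, and 28.4 and 5.82 CPM in Col-0 and 25.2 and 89.6 CPM in *pwr-2* at 27°C. The 23°C library of *pwr-2* replicate 2 was thus above all 4 libraries at 27°C, and the log2 fold change of *HSP17.4* was 2.61 (standard error 1.04). AT4G25200, a mitochondrial member of the family, showed the same order, with 0 CPM in *pwr-2* replicate 1 and 11.5 CPM in replicate 2 at 23°C and 5.30 and 11.02 CPM at 27°C. Without the pair of *pwr-2* replicate 2, 11 of the 14 were higher in all other pairs, where 5608 of all 19131 genes tested moved the same way, up or down.

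The 5 small heat-shock protein genes higher in every pair were AT1G59860, AT5G51440, AT2G29500, AT1G07400 and AT5G37670, with log2 fold changes of 1.28, 2.22, 2.47, 2.42 and 0.94. *HSP18.2* (-0.55) was the only member below 0. Among heat-shock factors and their partners, 6 of 19 (31.6%, against 8.65% of all genes tested) were higher in every pair and *HSFA1E* (-0.43) was lower in every pair. With a pair left out, 6 to 8 factors were higher in the rest, 8 of them without Col-0 replicate 1 or *pwr-2* replicate 2. Without these pairs, 7777 and 5608 of all 19131 genes tested moved the same way, up or down. *HSFA2*, the factor induced most by heat in Arabidopsis, had 2.56 and 2.97 CPM in Col-0 and 2.16 and 11.2 CPM in *pwr-2* at 23°C, and 9.86 and 10.8 CPM in Col-0 and 8.78 and 16.9 CPM in *pwr-2* at 27°C. The log2 fold change of *HSFA2* was 1.56 (standard error 0.29), that of the coactivator *MBF1C* 1.75 (standard error 0.35) and that of *AT-HSFB2B* 0.93 (standard error 0.23). *HSFA1D*, a master factor of the response, had 0.46 with no overlap between the temperatures, and *HSFB4* and *HSBP* had 0.33 and 0.20. The list median was 0.11.

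The promoter of *HSP17.4* is shown because it held 4 heat-shock elements, spelled here as 2 inverted units, GAANNTTC or TTCNNGAA. The elements overlap in the capital stretches.
HSP17.4, chr3:16984868-16985117, minus strand: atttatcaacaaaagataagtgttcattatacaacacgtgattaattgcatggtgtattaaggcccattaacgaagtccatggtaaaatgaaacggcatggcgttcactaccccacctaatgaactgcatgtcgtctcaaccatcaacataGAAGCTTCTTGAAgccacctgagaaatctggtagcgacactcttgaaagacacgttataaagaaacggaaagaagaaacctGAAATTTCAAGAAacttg
Of the small heat-shock protein genes 6 of 14 promoters (42.9%) held the element, where 2987 of 19037 windows of all genes tested held it. They were those of 2 of the 5 members higher in every pair and 4 of the other 9.

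**Figure D3:**
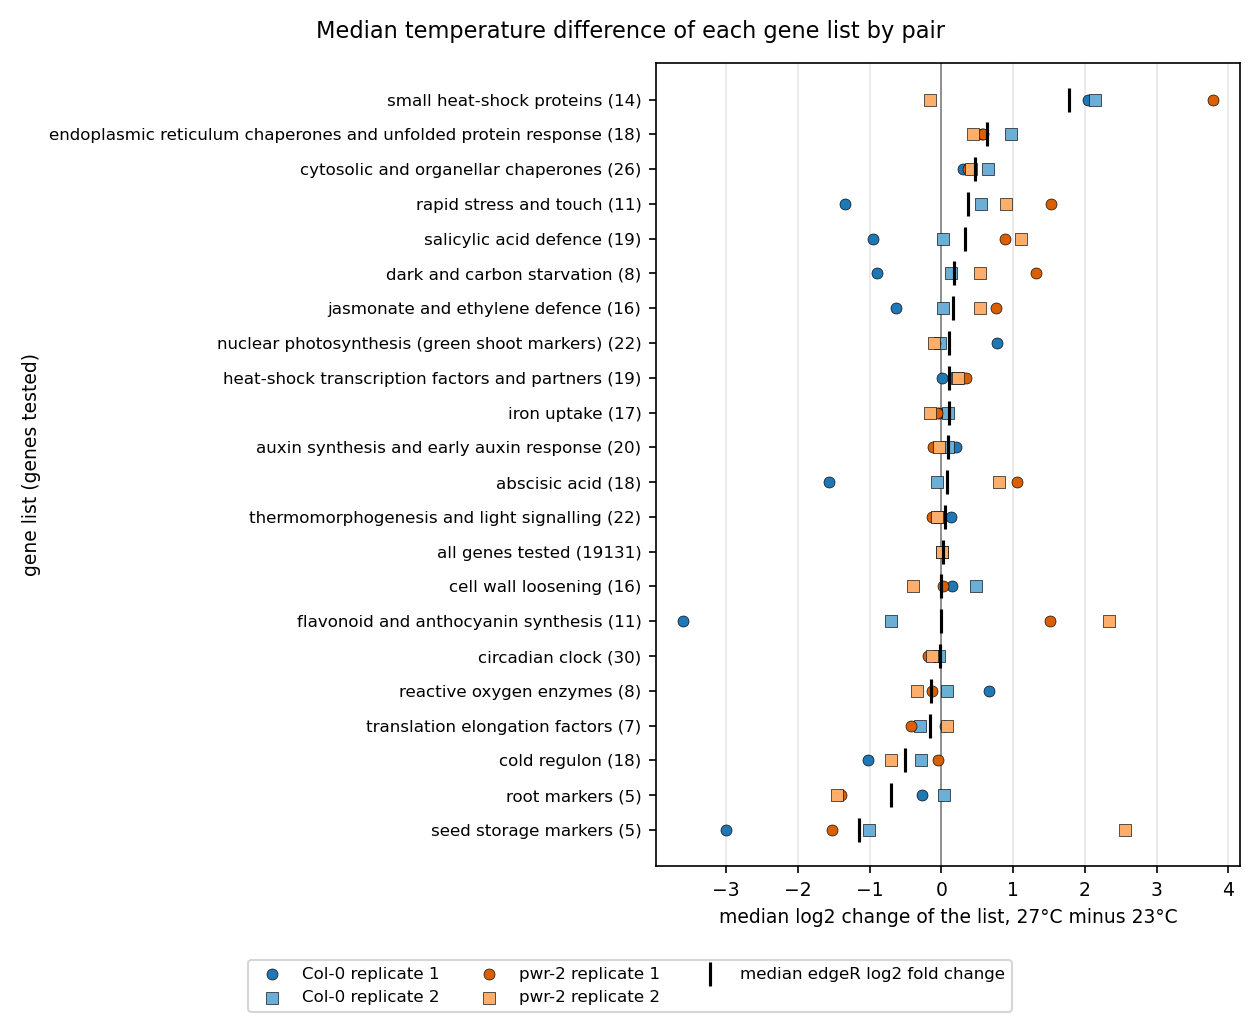
Median log2 change between 27°C and 23°C (x axis) of each gene list (y axis, with the number of genes tested) in each of the 4 pairs (blue, Col-0; orange, *pwr-2*; circles, replicate 1; squares, replicate 2), with the median edgeR log2 fold change as a black bar. The ER list lies between 0.44 and 0.97 in the pairs, whereas the flavonoid list runs from -3.61 in Col-0 replicate 1 to 2.34 in *pwr-2* replicate 2.

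The circadian clock list held lower and higher genes, so that its median log2 fold change was -0.02. Of 30 genes, 9 (30%, against 8.35% of all genes tested) were lower and 3 (10%, against 8.65%) higher in every pair. *PRR5* (chromosome 5 from 8356204 to 8358546), a pseudo-response regulator that represses morning genes, had 31.3 and 139 CPM in Col-0 and 41.6 and 112 CPM in *pwr-2* at 23°C. Its 27°C levels were 17.3 and 73.7 CPM in Col-0 and 40.8 CPM in *pwr-2* replicate 2, with *pwr-2* replicate 1 between the Col-0 replicates. Replicate 2 was above replicate 1 in every group, so the temperatures overlapped although each pair was lower, by between -1.45 and -0.81. The log2 fold change of *PRR5* was -1.02 (standard error 0.15, edgeR adjusted p = 0.582, DESeq2 adjusted p = 3.26e-05).

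*FKF1*, a blue-light receptor that controls flowering time, was at 11.1 and 50.4 CPM in Col-0 and 15.1 and 55.4 CPM in *pwr-2* at 23°C, and at 4.57 and 27.0 CPM in Col-0 and 9.28 and 18.3 CPM in *pwr-2* at 27°C. Its log2 fold change was -1.12 (standard error 0.18). *GI*, the partner of FKF1, had 183 and 298 CPM in Col-0 and 223 and 308 CPM in *pwr-2* at 23°C. At 27°C *GI* had 116 and 205 CPM in Col-0 and 153 and 201 CPM in *pwr-2*, with pairs between -0.66 and -0.54. Its log2 fold change of -0.59 had a standard error of 0.12.

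The RNA-binding proteins *GRP7* and *CCR1* (AT4G39260), also known as GRP8, form a slave oscillator of the clock and are induced by cold. *GRP7* had 552 and 542 CPM in Col-0 and 468 and 1035 CPM in *pwr-2* at 23°C, and 265 and 266 CPM in Col-0 and 282 and 707 CPM in *pwr-2* at 27°C. In Col-0 its 27°C libraries were below its 23°C libraries, and *pwr-2* replicate 2 stood above all others at either temperature. The log2 fold changes of *GRP7* and *CCR1* were -0.84 (standard error 0.15) and -0.79 (standard error 0.16). *PRR3* had -0.85 (standard error 0.20), while *TOC1*, an evening repressor, had -0.26 and the F-box proteins *LKP2* and *ZTL* had -0.19 and -0.18. The genes higher in every pair were *BOA*, *CDF2* and *CDF1* (AT5G62430), with 0.74, 0.56 and 0.44, of which the cycling DOF factors are known targets of FKF1 and GI. The morning genes *CCA1* and *LHY* did not move the same way in all pairs, at 0.19 and -0.52. DESeq2 called 5 members lower and none higher. Without the pair of Col-0 replicate 1, 14 members were lower in all other pairs, where 7777 of all 19131 genes tested moved the same way, up or down.

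Among the clock genes lower in every pair, 5 of 9 held the evening element, AAAATATCT on either strand, in the 250 bases before the annotated start. It was also in 3 of the other 21, among them *BOA*, which was higher in every pair. The share over all genes tested was 2.49%. The evening element is bound by the clock factors CCA1, LHY and RVE8. The windows of 4 of the 5 are shown with the element in capitals. It appears as AGATATTTT where it lies on the other strand.
PRR5, chr5:8358547-8358796, minus strand: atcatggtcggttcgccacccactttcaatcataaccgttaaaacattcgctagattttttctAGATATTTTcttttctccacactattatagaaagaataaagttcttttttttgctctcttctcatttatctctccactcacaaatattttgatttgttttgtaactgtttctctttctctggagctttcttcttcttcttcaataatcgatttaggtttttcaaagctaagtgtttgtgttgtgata
FKF1, chr1:25508389-25508638, plus strand: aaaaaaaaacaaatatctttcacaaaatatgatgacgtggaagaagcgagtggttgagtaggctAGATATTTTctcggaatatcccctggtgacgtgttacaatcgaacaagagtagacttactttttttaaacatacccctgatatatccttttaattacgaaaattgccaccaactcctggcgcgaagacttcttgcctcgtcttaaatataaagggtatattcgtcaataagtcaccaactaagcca
GRP7, chr2:9266558-9266807, minus strand: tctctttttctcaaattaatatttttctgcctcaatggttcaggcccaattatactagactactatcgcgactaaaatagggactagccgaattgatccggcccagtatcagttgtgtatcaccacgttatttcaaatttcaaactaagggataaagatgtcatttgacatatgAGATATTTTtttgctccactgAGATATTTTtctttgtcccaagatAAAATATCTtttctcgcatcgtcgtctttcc
CCR1, chr4:18275217-18275466, minus strand: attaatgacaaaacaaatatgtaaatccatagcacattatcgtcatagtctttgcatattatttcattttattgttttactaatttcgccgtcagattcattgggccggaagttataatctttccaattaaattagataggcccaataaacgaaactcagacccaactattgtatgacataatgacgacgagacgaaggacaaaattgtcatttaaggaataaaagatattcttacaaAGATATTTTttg
The 3 elements of *GRP7* end 68, 47 and 23 bases before the start.

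Across all genes, the share of promoters with an evening element was 4.26% among the genes lower in every pair (68 of 1597 with a window) and 1.09% among the higher genes (18 of 1652). It was 8.88% of the 259 lower genes whose weakest pair was beyond 0.25, and 11.9% (7 of 59) of those beyond 0.5. For higher genes it was 1.52% of 264 and 0% of 62 at the same limits. The other motifs were counted in the same classes. The heat-shock element was in 16.2% of higher and 16.2% of lower genes, the W-box (TTGACC or TTGACT), bound by WRKY factors, in 25.1% and 27.7% against 28% of all, the G-box in 8.9% and 5.39%, and the DRE (ACCGAC or GCCGAC), bound by CBF/DREB1 factors, in 7.2% and 9.89% against 8.03% of all. These shares were read on both strands and were not tested. The higher genes were shorter, with a median length of 1376 bases against 1936 bases for the lower genes and 1573 bases for all genes tested, and had a median of 5 exons against 7 and 5. Their median level was 15.6 CPM against 21.7 CPM for the lower genes.

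**Figure D4:**
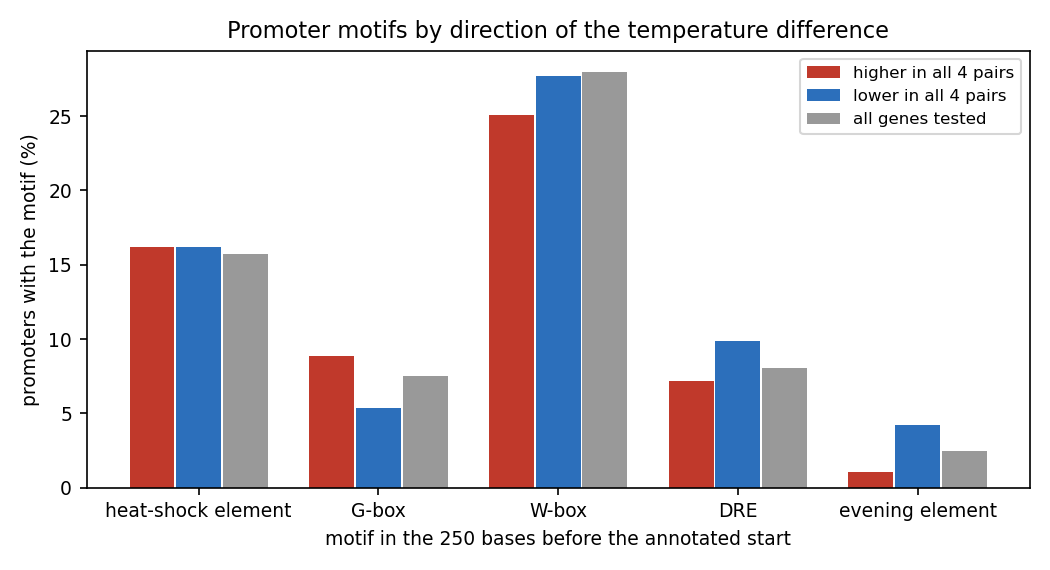
Share of promoters in percent (y axis, from 0) that hold each of 5 motifs (x axis) in the 250 bases before the annotated start, for genes higher in all 4 pairs (red), lower in all 4 pairs (blue) and all genes tested (grey). The evening element is in 4.26% of lower, 1.09% of higher and 2.49% of all genes.

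The cold regulon was the list with the largest share of members lower in every pair. Of its 18 genes, 7 (38.9%, against 8.35% of all genes tested) were lower in all 4 pairs and none was higher in all 4. The median log2 fold change was -0.50. Without the pair of *pwr-2* replicate 1, 10 cold genes were lower in the remaining pairs, and without any other pair 7 or 8. The genes that moved the same way, up or down, without *pwr-2* replicate 1 were 4656 of all 19131 tested. The medians of the pairs were -1.03 and -0.28 in Col-0 and -0.05 and -0.70 in *pwr-2*. *LTI78*, also called RD29A, a classical target of the DREB1 factors on chromosome 5 from 21240717 to 21243644, had 962 and 133 CPM in Col-0 and 863 and 1076 CPM in *pwr-2* at 23°C. The 27°C libraries had 145 and 51.4 CPM in Col-0 and 495 and 367 CPM in *pwr-2*. The 23°C library of Col-0 replicate 2 lay below 3 of the 4 libraries at 27°C, and every pair was lower, with a log2 fold change of -1.61 (standard error 0.33, edgeR adjusted p = 0.582, DESeq2 adjusted p = 0.000221).

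*DREB1A*, also called CBF3, which turns on the regulon, had 4.59 and 1.17 CPM in Col-0 and 5.62 and 12.02 CPM in *pwr-2* at 23°C, and 2.32 and 0.253 CPM in Col-0 and 3.56 and 5.33 CPM in *pwr-2* at 27°C. Its log2 fold change was -1.14 (standard error 0.27). *COR27* had -1.002 (standard error 0.20), *LTI30* -0.89, *COR413-PM1* -0.54 and *COR15A* -0.38. *COR47* had -0.50, and was the only one of the 7 whose 27°C libraries all lay below its 23°C libraries. *GolS3* and *COR15B* had values of -2.06 and -1.24 but were each higher at 27°C in 1 pair of Col-0. *CBF2* had -0.35 with 2 pairs up and 2 down, and the zinc finger genes *STZ* (0.04) and *RHL41* (0.39) were lower in the pair of Col-0 replicate 1 and higher in the other 3.

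The promoter of *LTI78* is shown for its 3 DREs, in capitals.
LTI78, chr5:21240467-21240716, plus strand: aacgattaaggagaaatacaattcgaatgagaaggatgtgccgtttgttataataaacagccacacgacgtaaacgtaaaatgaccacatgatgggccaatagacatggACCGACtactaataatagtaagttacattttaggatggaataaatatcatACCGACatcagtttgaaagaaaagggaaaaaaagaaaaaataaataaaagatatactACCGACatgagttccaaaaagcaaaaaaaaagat
A DRE was in 6 of the 18 promoters of the list (33.3%, against 8.03% of the promoters of all genes tested). They were those of 4 of the 7 members lower in every pair and 2 of the other 11.

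**Figure D5:**
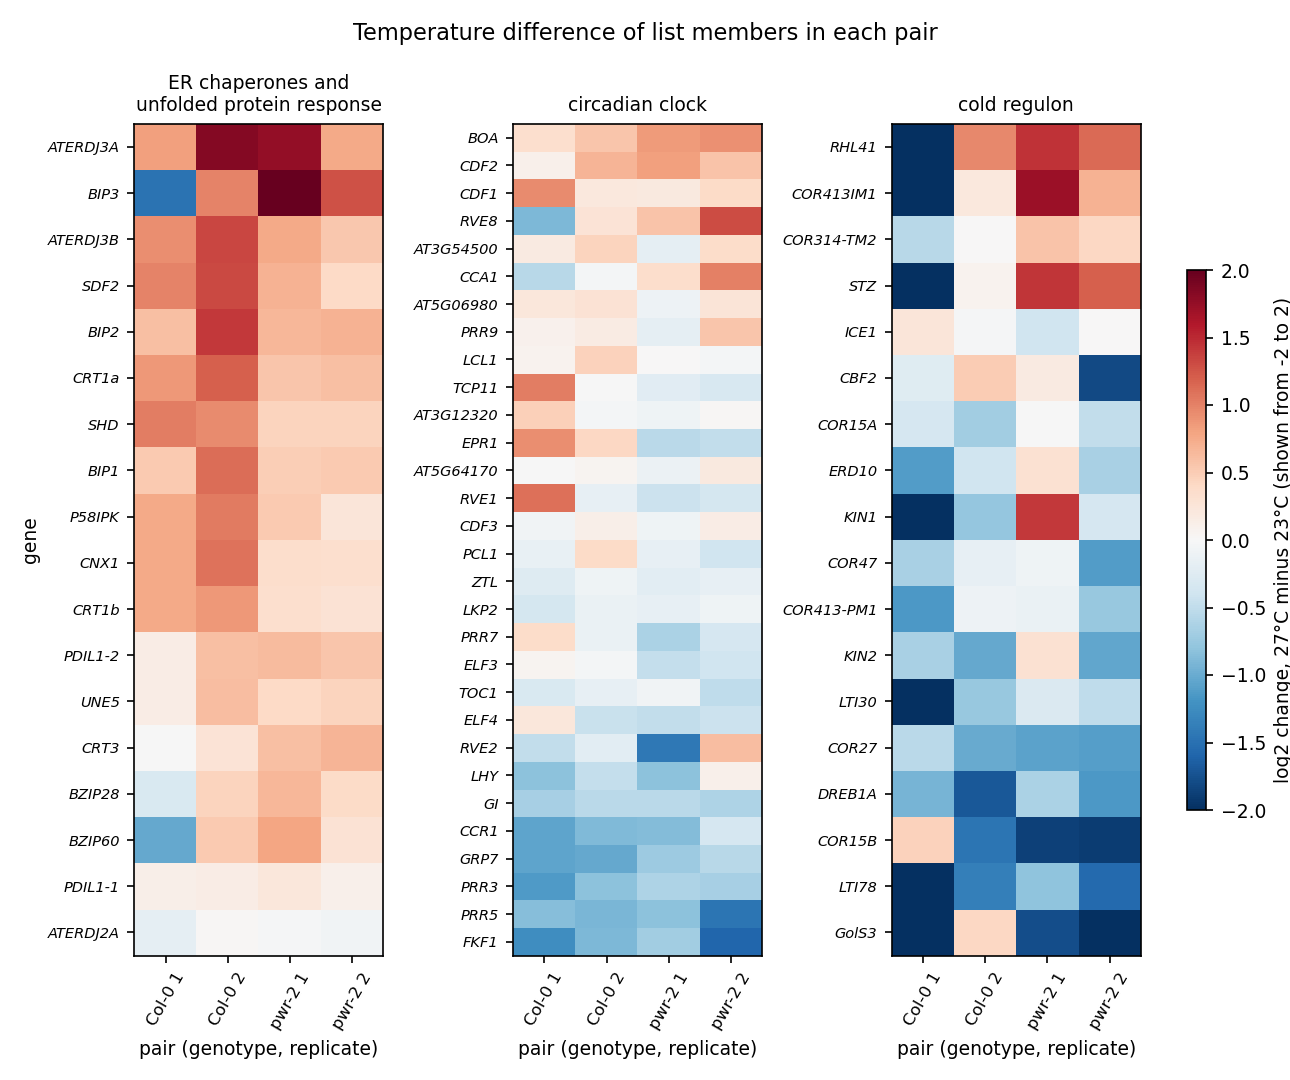
Log2 change between 27°C and 23°C in each pair (columns, genotype and replicate) for each tested member (rows) of the ER, clock and cold lists, in colour from -2 (blue) to 2 (red), with larger changes drawn at these limits. The ER panel is red in all 4 columns for 13 of 18 genes, and 9 of 30 genes in the clock panel and 7 of 18 in the cold panel are blue in all 4.

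Genes of thermomorphogenesis and light signalling did not move together at 2 hours. Of 22 genes, 1 (*DWF4*, a brassinosteroid synthesis gene, 0.29, standard error 0.13) was higher and 1 (*PHYB*, the photoreceptor phytochrome B, -0.15) lower in every pair. Each share was 4.55%, against 8.65% higher and 8.35% lower of all genes tested, and the list median was 0.05. *PIF4* had 79.8 and 91.9 CPM in Col-0 and 138 and 106 CPM in *pwr-2* at 23°C, and 128 and 96.9 CPM in Col-0 and 117 and 85.4 CPM in *pwr-2* at 27°C. Both Col-0 pairs of *PIF4* were higher and both *pwr-2* pairs lower, so the average of 0.05 (standard error 0.20) stands for neither genotype. *PIF3* had -0.37 (standard error 0.47), and the gibberellin synthesis gene *GA20OX1* -0.68 (standard error 0.35). *FT*, the florigen gene, had 9 counts in *pwr-2* at 23°C replicate 2, 1 count in *pwr-2* at 27°C replicate 1 and 0 in the other 6 libraries, and was not tested.

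In the auxin list, 1 of 20 genes was higher in every pair (*IAA2*, 0.30) and 2 were lower, *TAA1* and *IAA29*. These shares of 5% and 10% compare with 8.65% and 8.35% of all genes tested. *YUC8*, an auxin synthesis gene downstream of PIF4, was between 1.89 and 3.21 CPM at 23°C and between 2.32 and 3.101 CPM at 27°C, and its log2 fold change was 0.02 (standard error 0.20). *TAA1*, which makes the precursor that YUCCA enzymes use, had 17.5 and 13.3 CPM in Col-0 and 19.0 and 18.5 CPM in *pwr-2* at 23°C. Its changes in the pairs were -1.07 and -0.67 in Col-0 and -0.30 and -0.50 in *pwr-2*, and the log2 fold change was -0.64 (standard error 0.16, edgeR adjusted p = 0.582). *IAA29* had -1.22 (standard error 0.63), at no more than 1.84 CPM in any library, and *GH3.1* 0.53 (standard error 0.55). Among 16 cell wall genes, the xyloglucan transferases *TCH4* and *XTH24* were higher in every pair (12.5%), at 0.90 and 0.67. *XTH31* was lower in every pair (6.25%), at -0.58. *XTR6* and *XTH9* had 0.73 and 0.72, each with 1 pair lower.

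Several stress lists moved in opposite directions in different pairs, and their averages near 0 hide changes of opposite sign. None of 16 jasmonate and ethylene genes, 18 abscisic acid genes or 11 flavonoid genes moved the same way in all 4 pairs. Over all genes tested 8.65% were higher and 8.35% lower in all 4. The flavonoid list, which makes anthocyanin pigments, had pair medians of -3.61 and -0.70 in Col-0 and 1.51 and 2.34 in *pwr-2*. *DFR*, a step of anthocyanin synthesis, had 869 and 0.865 CPM in Col-0 and 112 and 20.7 CPM in *pwr-2* at 23°C, and 45.9 and 0.443 CPM in Col-0 and 442 and 258 CPM in *pwr-2* at 27°C. The log2 fold change of *DFR* was 0.66 (standard error 1.69), that of *MYB90*, an anthocyanin regulator, 1.56 (standard error 2.74), and that of *FLS1*, of flavonol synthesis, -0.45 (standard error 0.29).

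*RAB18* (AT5G66400), *HAI1* and *HAB1* had the largest averages of the abscisic acid list, 0.87, 0.77 and 0.70, with standard errors of 1.35, 1.09 and 0.38. Its pair medians were -1.56 and -0.06 in Col-0 and 1.05 and 0.80 in *pwr-2*. In the jasmonate and ethylene list the pair medians were -0.63 and 0.02 in Col-0 and 0.76 and 0.54 in *pwr-2*, and *VSP2* had 0.93 (standard error 0.56), *JAZ5* 0.59 (standard error 0.89) and *MYC2* 0.47 (standard error 0.21). In the salicylic acid list 2 of 19 genes were higher (*EDS1*, 0.31, and *PAD4*, 0.25) and 2 lower in every pair (*NPR1*, -0.22, and *SAG101*, -0.29). Each share was 10.5%, near the 8.65% higher and 8.35% lower of all genes tested. *WRKY54*, *CYP71A13* and *PBS3* had 1.82, 1.80 and 1.79, with standard errors of 0.72, 2.98 and 1.44. Of 11 rapid stress and touch genes, *TCH4* and *TCH2* (0.36) were higher in every pair. *TCH3* (0.72, standard error 0.78) and *WRKY40* (0.59, standard error 0.87) were lower in Col-0 replicate 1 alone.

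Whether the warm response differed between the genotypes was read from the temperature by genotype term, to mark genes for which the average is not a fair summary. In edgeR's quasi-likelihood test 0 of 19131 genes (0%) passed an adjusted p of 0.05, with a lowest adjusted p of 0.158, and 1838 (9.61%) had an unadjusted p under 0.05. DESeq2 called 250 genes (1.31%). Copper enzymes of the reactive oxygen list had pairs of both signs, so that their averages are not a fair summary. They did not pass for this term in edgeR, with adjusted p = 0.411 for *CSD2*, 0.422 for *CSD1* and 0.263 for *CCS*. *CSD2*, a chloroplast superoxide dismutase, had pairs of 1.70 and 0.08 in Col-0 and -2.38 and -4.85 in *pwr-2*, an average of -1.28 (standard error 1.24). *CSD1* and the copper chaperone *CCS* averaged -0.73 and -0.83, with only -0.02 and 0.17 in Col-0 replicate 2. By contrast *APX1*, a cytosolic ascorbate peroxidase, was higher in every pair at 0.40 (standard error 0.13), the only one of the 8 tested (12.5%, against 8.65% of all genes tested).

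The remaining lists held few genes that moved in every pair, with 5.88% higher and 11.8% lower in the iron uptake list. Over all genes tested these shares were 8.65% and 8.35%. Of 17 iron uptake genes *bHLH39* (1.30, standard error 0.70) was higher and *IRT2* (-1.41, standard error 0.41) and *NAS4* (-0.22) were lower in every pair. *IRT1* and *FRO2* had -2.11 and -1.90 (standard errors 0.87 and 0.76) with 1 Col-0 pair higher. They stood at 41.1 and 18.4 CPM in *pwr-2* at 23°C replicate 1, and no other library exceeded 2.90 CPM for *IRT1* or 4.18 CPM for *FRO2*. Of 8 dark and starvation genes *DIN4* was higher in every pair, at 0.31, and *DIN9*, *DIN11* and *BCAT-2* had 0.54, 0.40 and 0.34 with pairs of both signs. AT5G60390, an elongation factor 1-alpha gene, was lower in every pair at -0.21. Of 22 green shoot markers *LHCA1* was higher in every pair, at 0.22, and *LHB1B1*, *RBCS2B* and *LHCA2* had 0.39, 0.29 and 0.28. The list median was 0.78 in Col-0 replicate 1 and between -0.11 and -0.02 in the other pairs.

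Markers of other tissue moved with temperature in part. All 5 root markers had a log2 fold change below 0, with a median of -0.71 (-0.46 without the pair of *pwr-2* replicate 1 and -0.43 without that of replicate 2), and *PRP3*, a root hair wall protein, was lower in every pair, at -1.36 (standard error 0.34). *EXPA18* and *SHV2*, also root hair genes, had -0.82 and -0.71. The summed level of the root markers went from 41.0 to 56.1 CPM and from 68.2 to 74.2 CPM in the Col-0 pairs, and from 135 to 37.3 CPM and from 39.2 to 15.6 CPM in the *pwr-2* pairs. It was thus higher at 27°C in both Col-0 pairs and lower in both *pwr-2* pairs. All 5 seed storage markers tested were below 0, with a median of -1.15 (-0.63 without the pair of Col-0 replicate 1, -1.70 without that of *pwr-2* replicate 2 and -1.77 with no block), and *CRU3*, *CRA1* and *OLEO1* had -1.78, -1.32 and -1.15. The summed level of the seed storage markers was 444, 348, 362 and 3.64 CPM at 23°C and 57.0, 124, 115 and 20.3 CPM at 27°C in the pairs of Col-0 replicates 1 and 2 and *pwr-2* replicates 1 and 2. The part of these markers in the results above was not tested.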

How the data were processed

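Gene counts from paired-end RNA-seq of 8 libraries were used, with 2 replicates in each of 4 groups. The deposited tables, 1 for 23°C and 1 for 27°C, hold raw counts that the authors made by aligning reads of 90 bases to TAIR10 with TopHat2 2.1.0 and Bowtie2 2.1.0 and counting them with featureCounts 1.4.5. A normalized table was also deposited and was not used. The strand setting of the counting is not given in the sources used here, so reads of overlapping antisense genes cannot be told apart, and near-identical copies may share reads. The labels give the replicates no further description of their source.

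Genes were filtered with filterByExpr by temperature and scaled by TMM, and the average effect of 27°C was tested with edgeR 4.0.16 in R 4.3.3, with the 4 genotype-by-replicate pairs as a block, 3 residual degrees of freedom and Benjamini-Hochberg adjustment over 19131 genes. Standard errors were the fold change over the square root of F. Changes within a pair are log2 CPM with a prior count of 2. The numbers pair the samples: across genes the difference between replicates 1 and 2 at 23°C had a Pearson's r with that at 27°C of 0.665 for Col-0 and 0.579 for the mutant, and the study's methods model a batch between replicates. DESeq2 1.42.0, another scaling, other filters, other blocks and leaving out each pair were alternatives. Scripts were tested on simulated data.

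The members and gene lists were chosen with earlier results of these data known. Of 372 list entries 370 were kept after a check of names. The text names *PWR*, *PIF4*, *YUC8*, *FT* and *HSP70*, and the 12 genes in each direction that moved the same way in all 4 pairs. The rule asked for called genes with the largest weakest pair, and, as none was called, the genes of lowest p filled the places. It also names up to 3 members of each list with the largest fold change. All other list members, and the genes outside the lists in the closing section, were named after their values were seen. Promoter shares were to be read over called genes and, as there were none, were read over genes that moved the same way in all pairs. Gene names, positions and promoters came from the RefSeq annotation of TAIR10.1, which matched 32835 of 33602 identifiers. Figures were drawn with matplotlib 3.10.9.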

Additional observations from a re-analysis of the deposited data

Results flagged for a closer look

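The 4 pair values were screened for 145 genes and 22 lists. A single pair stood apart from the other 3 by Dixon's criterion in 12 of the 167 sets, and chance alone marks about 1 in 20 such sets of values. In 7 of them the pair was Col-0 replicate 1. Its log2 change was -2.51 for *JAZ5*, a jasmonate repressor, against 1.08 to 1.79 in the others, and -2.83 for *WRKY40*, a touch- and defence-induced factor, against 1.31 to 1.53. It was 0.15 for *PDIL1-2* against 0.56 to 0.63, -0.54 for *COR27* against -1.10 to -1.01, 0.28 for *YUC8* against -0.06 to -0.05 and 0.74 for *LHCA1* against 0.05 to 0.05. The median of the green shoot markers was 0.78 against -0.11 to -0.02. Col-0 replicate 2 stood apart for the BiP genes, with 1.12 for *BIP1* against 0.49 to 0.53 and 1.41 for *BIP2* against 0.61 to 0.69. In *pwr-2* replicate 2 the change was 0.59 for *HSFA2* against 1.80 to 1.94 and -1.45 for *PRR5* against -0.92 to -0.81. In *pwr-2* replicate 1 it was 2.06 for AT5G37670 against 0.40 to 0.63.

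Other genes and lists moved one way in both Col-0 pairs and the other way in both *pwr-2* pairs. Values are the mean change in the mutant minus the mean change in the wild type. The difference was 5.31 for *DFR*, 5.06 for *DIN11*, 3.36 for *BCAT-2*, 1.96 for *GH3.1* and 1.53 for *PIF3*, which were lower at 27°C in Col-0 and higher in *pwr-2*. It was -4.50 for *CSD2*, -2.87 for *CCS*, -0.95 for *RBCS2B* and -0.65 for *PIF4*, which were higher in Col-0 and lower in *pwr-2*. None of these genes passed an adjusted p of 0.05 for the temperature by genotype term in edgeR. In each of them Col-0 replicate 2 moved less than Col-0 replicate 1. Replicates 1 and 2 of Col-0 had -4.24 and -0.77 for *DFR*, -4.78 and -0.10 for *DIN11* and -2.36 and -0.16 for *BCAT-2*. They had -2.21 and -0.14 for *PIF3*, 1.70 and 0.08 for *CSD2* and 0.68 and 0.08 for *PIF4*. List medians differed by 4.08 for flavonoid synthesis and 1.73 for abscisic acid, and by -0.61 for reactive oxygen enzymes and -0.22 for auxin, and these differences of lists were not tested.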

How the results depend on the processing

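The limit of these data is the spread between 4 pairs, with 3 residual degrees of freedom. No gene passed an adjusted p of 0.05 under any edgeR setting, while DESeq2 with the same block called 134 genes for the average effect and 250 for the difference between genotypes. The cause was not tested. With the replicate number as a block of 2 levels and genotype as a term, 870 genes had an unadjusted p under 0.05, against 1288 with the 4 pairs and 349 with no replicate block. Leaving out each pair gave 642 to 3163, the highest without Col-0 replicate 1 and the others without *pwr-2* replicate 1 (642), Col-0 replicate 2 (702) and *pwr-2* replicate 2 (1000). Genes that moved the same way in all remaining pairs numbered 4656 to 7777, small heat-shock protein genes higher in every pair 5 to 11 and clock genes lower in every pair 9 to 14. A count of genes that agree in every pair cannot fall when a pair is left out. Its range therefore cannot show that the count holds. These alternatives of counts by pair were chosen after seeing the data. List medians moved by less than the SD of their own 4 pair medians in 172 of 175 alternatives and 85 of 88 with a pair left out. A list whose pairs spread widely can hardly exceed this limit, so the tally says little about such lists. The flavonoid median, with an SD of 2.66, ran from -1.12 to 1.69 with a pair left out. The iron uptake median went from 0.10 to -0.058 with the block of 2 levels and -0.061 with no block, and the clock median from -0.02 to -0.11 with no block. With a pair left out, the clock median ran from -0.20 to 0.030 and the auxin median from -0.083 to 0.095.

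Single genes with pairs of opposite sign changed direction. With the replicate block of 2 levels *MYB90* had -0.086 and *DFR* -0.10, and with no replicate block *MYB90* had -1.48, *CYP71A13* -1.26, *DFR* -0.91 and *DIN11* -0.67. With a pair left out, the range was -0.66 to 0.18 for *PIF3*, -0.28 to 0.98 for *BCAT-2*, -1.22 to 4.01 for *MYB90*, -1.70 to 4.095 for *CYP71A13*, -0.0089 to 0.65 for *LHB1B1*, -0.17 to 0.16 for *PIF4*, -1.05 to 2.02 for *DIN11*, -0.23 to 0.19 for *PWR*, -0.068 to 0.051 for *YUC8*, -0.087 to 0.47 for *RBCS2B*, -1.07 to 2.25 for *DFR*, -0.15 to 1.92 for *HAI1* and -0.22 to 1.96 for *RAB18*. Among the 145 genes for which these alternatives were run, the choice of block changed no other direction. Over all genes tested the median log2 fold change stayed between -0.0047 and 0.02.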

Other observations

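Outside the lists, 3 more genes of the secretory pathway were higher in every pair. *TIN1*, named for its induction by tunicamycin, a drug that causes ER stress, had a mean of 5.28 CPM at 23°C and 17.3 CPM at 27°C (n = 4 each) and a log2 fold change of 1.80 (standard error 0.35). *UTR3*, a nucleotide sugar transporter, went from a mean of 24.98 to 53.8 CPM, with 1.09 (standard error 0.19), and the disulfide isomerase *PDIL2-3* from 43.0 to 67.8 CPM, with 0.65 (standard error 0.10). *SR45a*, a splicing factor, had 1.07 and *GolS1*, a galactinol synthase, 0.996.

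Among lower genes were the neighbours AT5G47980 and *CYP705A5*, which lie side by side in the thalianol gene cluster of triterpene synthesis, with log2 fold changes of -0.78 and -0.90, and *MRN1*, the marneral synthase of another such cluster, with -1.20 (standard error 0.25). Mean levels went from 76.1 to 38.8 CPM for *CYP705A5* and from 27.6 to 13.7 CPM for *MRN1*. *RSL4*, a factor that promotes root hair growth, had -1.35 at a mean of at most 1.74 CPM. AT4G12500 and *AIR1*, lipid-transfer-like genes near *AZI1* on chromosome 4, had -1.44 and -1.33, and as close copies they may share reads.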
